A study of Rattus norvegicus with 90 samples.

Results

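The highest dose of human umbilical cord mesenchymal stromal cells (HuMSC), 125 M cells per kg given through the nose at postnatal day (P) 10, was examined in the CD11b/c-positive cells of the rat brain at P12. The comparison set 3 libraries of rats that had received IL-1β and this dose (HuMSC125) against 3 libraries of rats that had received IL-1β and a sham dose of PBS (injured), chosen by their labels out of 90 libraries in the series. All were male Wistar Han rats, and recombinant mouse IL-1β had been injected intraperitoneally at 20 µg per kg from P1 to P5. Control rats (3 libraries) had PBS injections and the sham dose, and the lower doses of 20 and 50 M per kg after IL-1β (HuMSC20 and HuMSC50, 3 libraries each) shared the route and the sequencing run. Brains were perfused 48 h after the cells, freed of olfactory bulbs and cerebellum and dissociated, and cells held by CD11b/c beads were taken for polyadenylated RNA. The human cells were xenogeneic, and the genes counted were those of the rat. Read counts were deposited for 32623 rat genes, of which 13868 passed a filter on low counts and were tested.

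Microglia are the resident macrophages of the brain. In the neonate they respond to systemic inflammation with cytokines, chemokines and prostaglandins, many of them switched on through the transcription factors NF-κB and AP-1, and they also shape myelination. Mesenchymal stromal cells are studied for secreted factors that can lower such responses, and IL-1β given to the newborn rat is a model of inflammatory white matter injury.

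The 15 libraries of the run held 11.45 to 15.86 M counts (11.76, 15.79 and 15.22 M in HuMSC125 and 12.97, 13.98 and 15.86 M in injured), which limits precision mainly for genes of low CPM (counts scaled to the library's total). Microglial markers were abundant: the 11 tested microglial genes had a mean log2 CPM between 10.03 and 10.47 in all 15 libraries. Of those 11, 0 were called between HuMSC125 and injured, where 1.05 percent of all genes tested were. Their summed level was 22810, 21010 and 25160 CPM in HuMSC125 and 25840, 27920 and 25280 CPM in injured libraries. It was 28320 to 30280 CPM in control libraries. Every HuMSC125 library thus lay below every injured library in this sum. Both groups held a library with RNA of other cells. HuMSC125 replicate 2 was rich in neuron transcripts, whose 25 tested markers summed to 1255 CPM there, 265.7 and 214.4 CPM in the other HuMSC125 libraries and 202.1 to 269.7 CPM in injured libraries. HuMSC125 replicate 3 was rich in adipocyte transcripts, whose 11 tested markers (a list written after the data were seen) summed to 1700 CPM there against 80.43 and 79.28 CPM in replicates 1 and 2. Injured replicate 3 carried 256.5 CPM of the same markers, and injured replicates 1 and 2 carried 92.91 and 65.94 CPM. HuMSC20 replicates 1, 2 and 3 carried 246, 143.3 and 68.87 CPM of them.

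**Figure D1:**
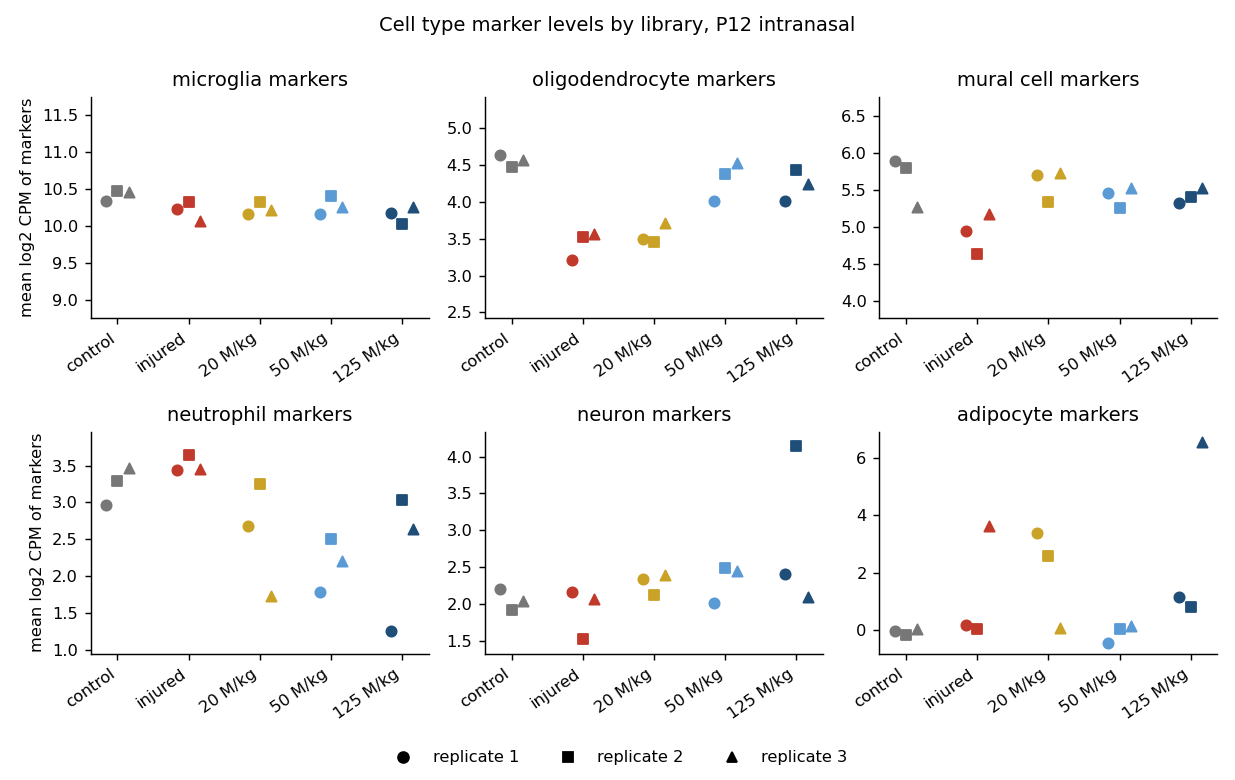
Mean log2 CPM (vertical axis) of tested marker genes of 6 cell types in each of the 15 libraries of the P12 intranasal run; colours are groups and symbols are replicates. HuMSC125 replicate 2 stands at 4.137 for neuron markers and HuMSC125 replicate 3 at 6.563 for adipocyte markers, while microglial markers lie between 10.03 and 10.47.

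Does the highest intranasal dose change the transcriptome of injured rats? Cytokine, NF-κB and immediate early genes were among those that fell, and myelin and smooth muscle genes among those that rose. Of 13868 genes, 146 were called at an adjusted p under 0.05 (edgeR quasi-likelihood test, 1.05 percent of genes tested): 124 were lower in HuMSC125 (0.894 percent) and 22 higher (0.159 percent). The fall was led in strength of evidence by Csf1, the growth factor on which microglia depend, and by Atp1b1, a subunit of the sodium pump. The largest rise was that of Cabp7, a calcium-binding protein gene. At an unadjusted p under 0.05 there were 1901 genes. In all 146 called genes the 3 libraries of one group lay above the 3 of the other, as they did in 17.5 percent of all genes tested. The count depended on the libraries in the fit: the 6 compared libraries alone gave 3 genes (Csf1, Atp1b1 and Klra2, a lectin-like receptor gene, named because they were the 3), and leaving out 1 library gave 28 (without injured replicate 1) to 175 genes (without injured replicate 3). DESeq2 gave 436 genes, of which 165 were higher, a larger share of rises than in the main test. Without the neuron-rich HuMSC125 replicate 2, 132 genes were called (0.939 percent of those tested there, 20 higher and 112 lower), and 91 were shared with the 146 (80 lower, 11 higher). Without the adipocyte-rich replicate 3, 56 genes were called (23 higher, 33 lower). Through the settings 59 called genes were followed, most of them picked by the naming rule and the others named outside it. The call was lost by 39, 19 and 41 of them when HuMSC125 replicate 1, 2 or 3 was left out. It was lost by 46, 26 and 11 when injured replicate 1, 2 or 3 was. The 19 that lost it without the neuron-rich HuMSC125 replicate 2 were Ccl7, Cxcl10, Il1r2, Fosb, Klf4, Klf6, Arc, Plin2, Cd68, Grn, Mmp8, Spn and Slc1a3 among the falls and Bcas1, Mag, Tspan2, Fgf13, Tubb4a and Acta2 among the rises.

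**Figure D2:**
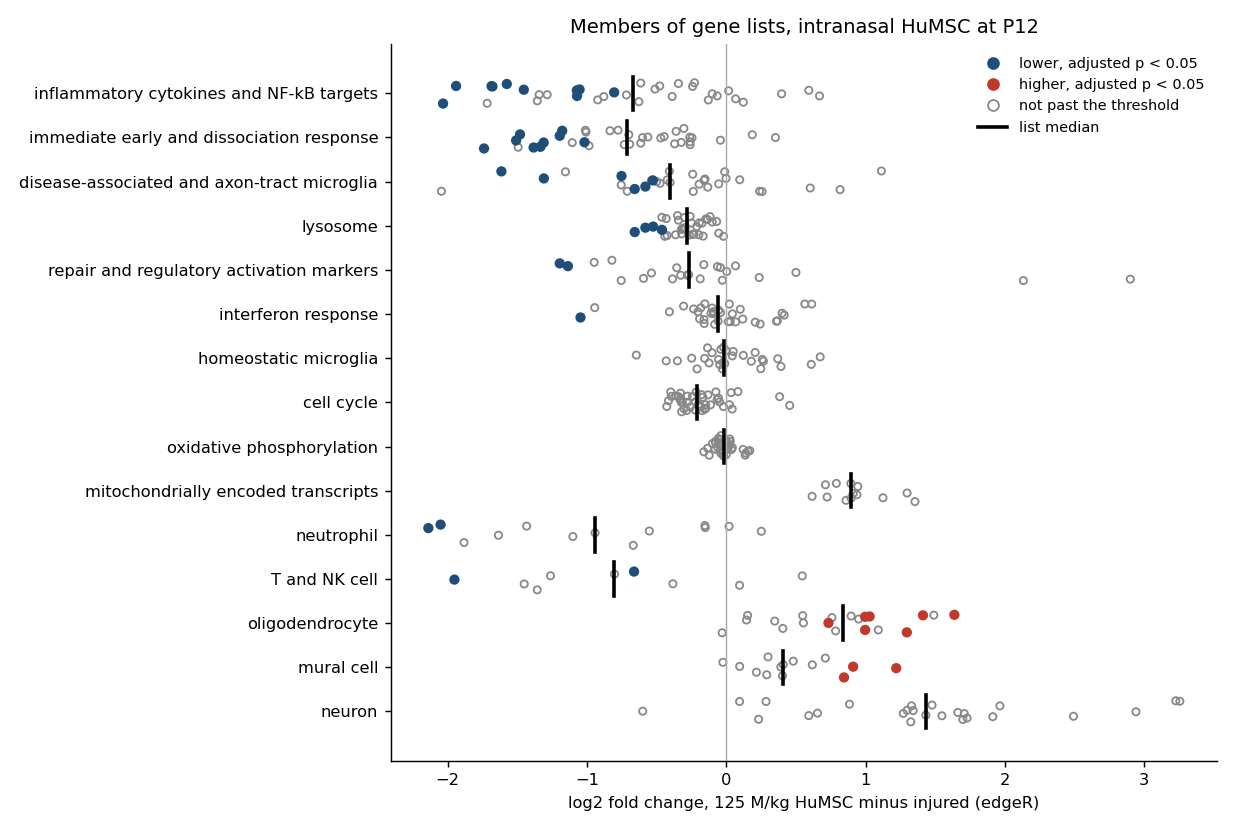
Log2 fold change of HuMSC125 minus injured (horizontal axis) of each tested member of 15 gene lists (rows); filled points passed an adjusted p of 0.05, open points did not, and the black bar is the list median. Filled points lie below 0 in the inflammatory, immediate early, disease-associated, lysosome, neutrophil and T cell lists and above 0 in the oligodendrocyte and mural cell lists.

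Csf1 (chromosome 2, 210522375 to 210550560 in the deposited table, whose genome build the sources do not name) stood at 27.93, 34.27 and 24.17 CPM in HuMSC125, at 85.66, 80.52 and 98.2 CPM in injured and at 37.95, 38.96 and 36.45 CPM in control libraries. Every HuMSC125 library was below every control library, and every injured library was above both groups. The log2 fold change against injured was -1.61 ± 0.11 (SE, n = 3 against 3, edgeR adjusted p = 4.638e-06). Among the same 59 genes, Csf1 was the one that kept its call under all 13 other settings, with log2 fold changes from -1.76 to -1.42. Atp1b1 and Klra2 were not among the 59 followed. Atf3, Fosl2, Pdk4 and Cabp7 kept theirs in 12 of 13, missing it in the fit of the 6 libraries alone.

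The list of inflammatory cytokines and NF-κB targets had 34 tested members, of which 10 fell and 0 rose, with a median log2 fold change of -0.67 against 0.0084 over all genes. Of all genes tested 0.894 percent fell and 0.159 percent rose. The 10 were the cytokine gene Il1b, the chemokine genes Cxcl2, Ccl7 and Cxcl10, the atypical chemokine receptor Ccrl2, the prostaglandin synthase Ptgs2, the adhesion molecule Icam1, and Tnfaip3, Nfkbiz and Tnfaip2, genes that NF-κB induces and of which Tnfaip3 feeds back on it. Nfkbiz, Icam1, Ccl7 and Cxcl10 are named to complete the 10. The injured replicate 1 library was the highest of its group in all 10 genes, and HuMSC125 replicate 2 was the highest of its group in 9 of them. The number of fallen members was 13 without HuMSC125 replicate 2 (8 of the 10 and 5 others) and 13 without injured replicate 3, but 0 without HuMSC125 replicate 1, 0 without injured replicate 1 and 1 without HuMSC125 replicate 3.

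Il1b (chromosome 3, 121876263 to 121882726) had 43.58, 111.2 and 56.96 CPM in HuMSC125, 304, 149.2 and 179.6 CPM in injured and 102.7, 91.68 and 84.2 CPM in control libraries. The HuMSC125 and injured values did not overlap, and the neuron-rich replicate 2 was the HuMSC125 library nearest to injured. Its log2 fold change was -1.57 ± 0.32 (edgeR adjusted p = 0.0318), and -2.07 without that replicate (adjusted p = 0.004481). The call was lost in 6 of 13 other settings (the replicate block, the 6 libraries alone, and without injured replicate 1, HuMSC125 replicate 1, HuMSC125 replicate 3 or both replicates 3), and the log2 fold change lay between -2.07 and -1.22 over the 13. Its own antagonist gene Il1rn also fell: 4.375, 6.394 and 4.465 CPM in HuMSC125 stood below 13.04, 10.11 and 10.5 CPM in injured libraries (log2 fold change -1.14 ± 0.23, adjusted p = 0.03165). The decoy receptor gene Il1r2 moved the same way, with 0.9255, 1.726 and 1.786 CPM against 5.942, 3.517 and 4.086 CPM (-1.58 ± 0.35, adjusted p = 0.0442). Agonist, antagonist and decoy receptor of the IL-1 system were all lower in the main fit. The call was lost in 6 of 13 other settings for Il1rn and in 9 of 13 for Il1r2. For Il1r2 these included leaving out any 1 of the 6 compared libraries.

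Tnfaip3 (chromosome 1, 14402913 to 14412807) had 94.65, 129.3 and 108.4 CPM in HuMSC125 and 746.9, 304.5 and 224.2 CPM in injured libraries, where replicate 1 stood far above the others. Its log2 fold change was -1.94 ± 0.38 (edgeR adjusted p = 0.02464). Cxcl2, which draws in neutrophils, had 35.92, 98.08 and 52.24 CPM against 302, 141.5 and 157.2 CPM, again without overlap (-1.68 ± 0.33, adjusted p = 0.02339). Ptgs2 had 5.132, 5.307 and 7.59 CPM against 22.3, 12.38 and 14.96 CPM, and its HuMSC125 libraries also lay below the control libraries at 14.33, 12.4 and 11.54 CPM. Its log2 fold change was -1.45 ± 0.25 against injured (adjusted p = 0.0141) and -1.08 ± 0.25 against control (adjusted p = 0.3417). Ccrl2 fell by 2.03 ± 0.40, Nfkbiz by 1.68 ± 0.37, Icam1 by 1.07 ± 0.22, Tnfaip2 by 1.07 ± 0.20, Cxcl10 by 1.05 ± 0.24 and Ccl7 by 0.80 ± 0.18 on the log2 scale. Outside the list, Lif, a cytokine of the IL-6 family, had 3.87, 2.174 and 3.189 CPM against 14.2, 11.14 and 7.921 CPM (-1.85 ± 0.30, adjusted p = 0.01057). Socs3, a feedback inhibitor of cytokine signalling, did not pass the test at 14.98, 17.9 and 18.05 CPM against 48.31, 28.5 and 21.88 CPM (-0.95 ± 0.25, adjusted p = 0.09214).

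**Figure D3:**
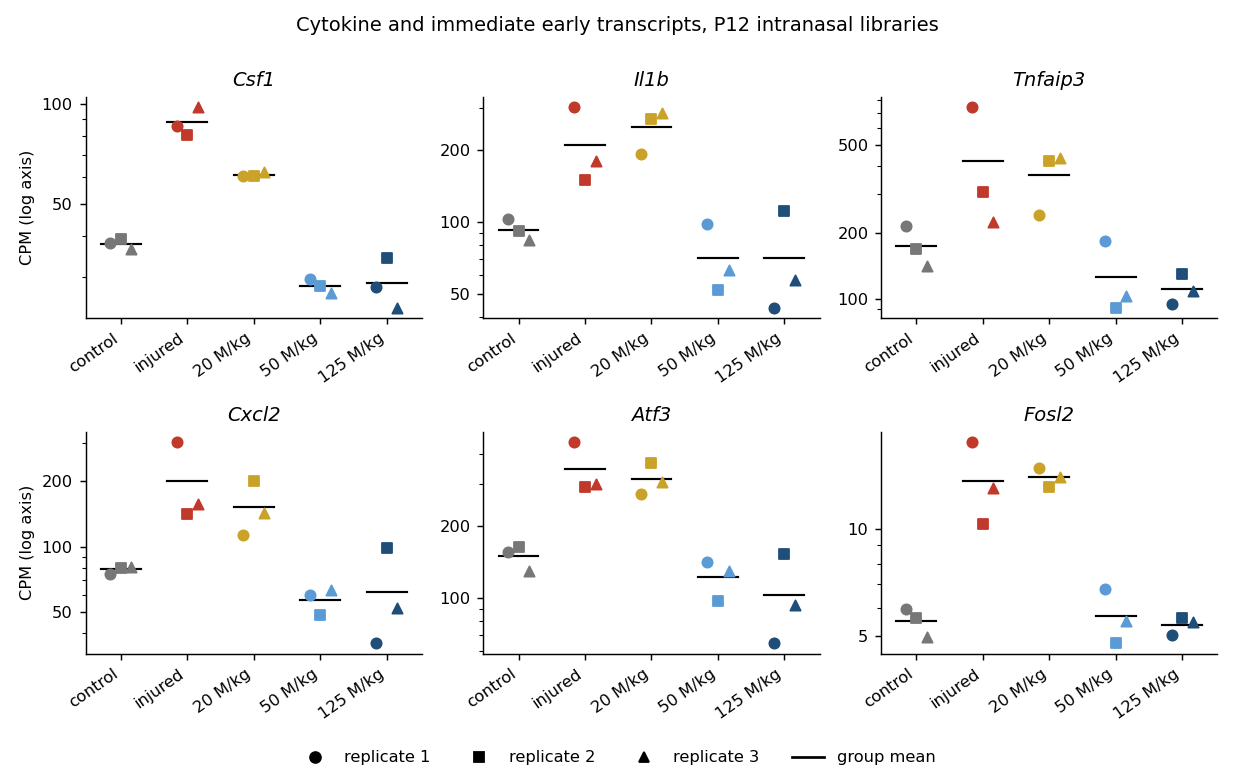
CPM (vertical log axis) of 6 genes in each of the 15 libraries; colours are groups, symbols are replicates and black lines are group means. In all 6 genes the HuMSC125 libraries lie below the injured libraries, and the HuMSC20 libraries lie above the HuMSC125 libraries.

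The promoter sequences of these genes are shown because the list was built on NF-κB targets. RefSeq (build GRCr8) gave a window from 250 bases before to 50 bases after the transcription start for 113 of the 146 called genes, and for all 10 fallen members of the list. It was searched on both strands for a loose κB pattern (GGGA, any 4 bases, then CC) and for TGANTCA, the AP-1 pattern. A κB match was found in 7 of the 10 windows and an AP-1 match in 3. The κB pattern was in 34.7 percent of the 98 windows of fallen genes, in 25.5 percent of 10130 windows of tested genes and in 19.3 percent of all 33469 windows. The AP-1 pattern was in 14.3, 4.85 and 7.33 percent of the same sets. The 98 windows of fallen genes included the 10. Those came from a list of NF-κB targets, so their κB matches do not bear on the treatment. In the 15 windows of risen genes the κB pattern was in 26.7 percent (4 of 15) and the AP-1 pattern in 13.3 percent (2 of 15), the latter close to its share in fallen genes. Below, the 250 bases before the start of Cxcl2 (chr14:17467256-17467505, minus strand), Nfkbiz (chr11:58251471-58251720, plus strand) and Tnfaip3 (chr1:15543980-15544229, minus strand) are printed 5′ to 3′ with the matches in capitals.
Cxcl2: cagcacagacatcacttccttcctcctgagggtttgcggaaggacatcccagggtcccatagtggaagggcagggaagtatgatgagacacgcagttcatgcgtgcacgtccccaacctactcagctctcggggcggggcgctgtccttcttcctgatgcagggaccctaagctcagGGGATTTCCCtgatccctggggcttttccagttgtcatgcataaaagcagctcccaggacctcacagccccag
Nfkbiz: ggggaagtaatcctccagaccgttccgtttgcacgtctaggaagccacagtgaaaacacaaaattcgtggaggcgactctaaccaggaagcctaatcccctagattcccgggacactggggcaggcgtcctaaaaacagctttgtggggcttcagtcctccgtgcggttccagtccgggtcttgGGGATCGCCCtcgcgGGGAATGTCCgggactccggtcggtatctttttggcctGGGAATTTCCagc
Tnfaip3: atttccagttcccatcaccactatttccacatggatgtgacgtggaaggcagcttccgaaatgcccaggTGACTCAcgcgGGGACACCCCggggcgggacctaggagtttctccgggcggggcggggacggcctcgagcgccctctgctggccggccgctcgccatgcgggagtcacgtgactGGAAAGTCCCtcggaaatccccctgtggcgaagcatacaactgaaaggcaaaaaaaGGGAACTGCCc
Cxcl2 held 1 κB match, GGGATTTCCC, beginning 73 bases before the start. Nfkbiz held 3, of which GGGAATTTCC began 13 bases before the start, and Tnfaip3 held 3 κB matches and the AP-1 match TGACTCA, 181 bases before the start. No match was found in the windows of Il1b, Ptgs2 and Icam1, which says only that these letters are not in these windows.

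Immediate early genes, which respond within minutes to stimulation and also to tissue dissociation, had 36 tested members, of which 9 fell and 0 rose (median -0.72). Over all genes tested 0.894 percent fell and 0.159 percent rose. Atf3, a stress-induced transcription factor, had 64.61, 152.3 and 93.18 CPM in HuMSC125 and 446.7, 291 and 298.8 CPM in injured libraries, without overlap (log2 fold change -1.74 ± 0.25, edgeR adjusted p = 0.005104). Fosl2, a subunit of AP-1, had 5.048, 5.626 and 5.485 CPM against 17.52, 10.33 and 13.01 CPM, and its HuMSC125 libraries lay within the range of the control libraries at 5.97, 5.634 and 4.982 CPM. Its log2 fold change against injured was -1.33 ± 0.19 (adjusted p = 0.004524). Gadd45b, a stress and growth arrest gene, fell by 1.51 ± 0.21 and the MAP kinase phosphatase Dusp2 by 1.48 ± 0.28 on the log2 scale. The other fallen members, Fosb, Nr4a1, Klf4, Arc and Klf6 (named to complete the 9), are transcription factor genes apart from Arc and had log2 fold changes from -1.38 to -1.02. The list had 9 fallen members without HuMSC125 replicate 2, of which 5 were among the 9 above and 4 were others, and 3 without HuMSC125 replicate 1, HuMSC125 replicate 3 or injured replicate 1. Because dissociation can induce these genes, their levels in the tissue and during the preparation cannot be told apart here. Summed over tested members, the inflammatory list moved with this one. Of the HuMSC125 and injured libraries, injured replicate 1 was the highest in both (8366 CPM inflammatory, 19660 CPM immediate early). HuMSC125 replicate 1 was the lowest in both (2778 and 8520 CPM). Whether the preparation had a part in the cytokine genes was not tested.

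Genes of disease-associated and axon-tract microglia, states seen around injury and growing myelin, had 31 tested members, of which 6 fell and 0 rose (median -0.40). For this list and the lysosomal one, the shares over all genes tested were 0.894 percent lower and 0.159 percent higher. Besides Csf1 the 6 fallen members were Gpnmb, a lysosomal glycoprotein of lipid-laden macrophages, Cd63 and Cd68, membrane proteins of late endosomes, Plin2, a coat protein of lipid droplets, and the protease gene Ctsd. Gpnmb had 193.1, 238.9 and 178.3 CPM in HuMSC125 and 321.2, 663.9 and 527.2 CPM in injured libraries, while control libraries had 225.2, 177.2 and 279.3 CPM. The HuMSC125 values lay within the control range and below all injured values (log2 fold change -1.31 ± 0.23, edgeR adjusted p = 0.01531). Cd63 fell by 0.75 ± 0.12 and Plin2 by 0.53 ± 0.11. Of the 6 members, 2 passed without HuMSC125 replicate 1, 3 without HuMSC125 replicate 3 and 3 without injured replicate 3. Spp1, the gene of osteopontin, varied too much between libraries for a call, with 156.9, 135.9 and 24.36 CPM against 221.9, 367.7 and 714.8 CPM (-2.04 ± 0.72, adjusted p = 0.2057). Igf1, Lgals3 and Apoe did not pass either, with log2 fold changes of -0.54 ± 0.16, -0.75 ± 0.23 and -0.24 ± 0.20. Of 34 tested lysosomal genes 4 fell and 0 rose (median -0.28): the protease genes Tpp1 (-0.52 ± 0.10) and Ctsd (-0.58 ± 0.13), Cd68 (-0.66 ± 0.15) and the progranulin gene Grn (-0.46 ± 0.10). These changes were small, and 0 of the lysosomal genes passed without HuMSC125 replicate 1, without HuMSC125 replicate 3 or without injured replicate 2.

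Microglial identity genes gave no call. Of 29 tested homeostatic genes 0 were called (median -0.02), where 1.05 percent of all genes tested were. At that share, 0 calls do not set apart a list of this size, here or in the lists below. The purinergic receptor P2ry12 had 1579, 1416 and 1565 CPM in HuMSC125 and 1589, 2248 and 1435 CPM in injured libraries (-0.21 ± 0.15), Tmem119 had 737.4, 516.2 and 709.5 against 754.3, 604.7 and 273.5 CPM (0.27 ± 0.28), and the fractalkine receptor Cx3cr1 had 1589, 1206 and 1507 against 1551, 2193 and 1367 CPM (-0.25 ± 0.19). The groups overlapped in all 3 genes. The 42 tested cell cycle genes gave 0 calls (median -0.21), and the proliferation marker Mki67 had 181.7, 135.9 and 140.3 against 194.3, 213.7 and 166.3 CPM (-0.33 ± 0.14). Neither were genes of oxidative phosphorylation (0 of 36), ribosomal proteins (0 of 41), cholesterol synthesis (0 of 26), complement and phagocytosis (0 of 28), heat shock and unfolded protein response (0 of 26) or LXR targets (0 of 16) called. One member each was lower in the interferon (Cxcl10, 1 of 34), antigen presentation (Cd83, -1.16 ± 0.25, 1 of 21), prostaglandin (Ptgs2, 1 of 18) and glycolysis lists (the lactate exporter Slc16a3, -1.10 ± 0.18, 1 of 26).

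Among repair and regulatory markers no member passed as higher, where 0.159 percent of all genes tested did. Of all genes tested 0.894 percent passed as lower. Of 23 tested members 2 fell, Il1rn and the transcription factor gene Klf4 (-1.20 ± 0.25), and 0 rose (median -0.27). The mannose receptor gene Mrc1 had 617.6, 404.8 and 515.9 CPM in HuMSC125 and 650.1, 714.6 and 564.1 CPM in injured libraries, with overlap (-0.33 ± 0.15, edgeR adjusted p = 0.3342), and Arg1 did not pass the filter on low counts. Of 22 tested glucocorticoid response genes 2 fell and 0 rose. One was Il1r2 and the other Pdk4, a kinase that holds back glucose oxidation, with 15.31, 22.63 and 22.64 CPM in HuMSC125, 113, 76.93 and 58.66 CPM in injured and 34.2, 36.14 and 28.9 CPM in control libraries. The HuMSC125 libraries were the lowest of the 3 groups, and the log2 fold change against injured was -2.03 ± 0.25 (adjusted p = 0.001515). Of 24 tested TGF-β response genes 2 fell, Id2 (-0.98 ± 0.22) and Tgif1 (-0.82 ± 0.19), and 0 rose (median 0.14).

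The largest falls by fold change held genes of these groups, neutrophil genes and Cd8a, whose cell of origin was not tested. Sdc4, a cell surface proteoglycan, led with 21.54, 47.12 and 23.03 CPM in HuMSC125 against 248.1, 86.09 and 86.88 CPM in injured libraries, without overlap (-2.19 ± 0.39, edgeR adjusted p = 0.01652). Other large falls were those of the neutrophil collagenase Mmp8 (-2.14 ± 0.48), the neutrophil alarmin S100a9 (-2.05 ± 0.44), the tetraspanin gene Tspan10 (-2.04 ± 0.32), the Ras exchange factor Rasgef1b (-1.99 ± 0.38), Cd8a (-1.95 ± 0.41) and the urokinase gene Plau (-1.77 ± 0.31). S100a9 had 8.666, 33.89 and 22.26 CPM against 128.8, 82.87 and 59.54 CPM. The 13 tested neutrophil markers (17 in the list) summed to 216.6 to 319.6 CPM in HuMSC125, 353.6 to 486.9 CPM in injured and 366.1 to 413.9 CPM in control libraries, with HuMSC125 replicate 1 the lowest. Granule genes of the lineage (named after their values were seen) were present in these 9 libraries: Ngp had 35 to 379 counts, Camp 8 to 204, Np4 16 to 190 and Defa5 15 to 181. The 4 markers that did not pass the filter, Ltf, Elane, Prtn3 and Ctsg, had at most 4 counts. Of the 13 tested neutrophil markers 2 fell (S100a9 and Mmp8), where 0.894 percent of all genes tested did. In bulk libraries fewer neutrophils and less RNA per neutrophil cannot be told apart. The part of neutrophils in the fall of cytokine genes was not tested.

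Cd8a had 4.375, 7.544 and 3.125 CPM in HuMSC125, 10.42, 20.44 and 27.41 CPM in injured and 2.388, 3.139 and 5.315 CPM in control libraries. Cd4, which rat microglia also carry, had 363.6, 316.6 and 327.7 against 549.8, 521 and 523.6 CPM (-0.66 ± 0.10, edgeR adjusted p = 0.005093). The groups did not overlap in either gene. The genes that define T cells were near 0: Cd3e, Cd3d and Cd3g had between 0 and 6 counts in each of the 9 HuMSC125, injured and control libraries. Of 9 tested T and NK cell markers (26 in the list) 2 fell, and the markers summed to 371.4 to 401.8 CPM in HuMSC125, 586.4 to 611.3 CPM in injured and 370.5 to 460.5 CPM in control libraries, mostly from Cd4. Among 12 tested monocyte markers 2 fell, including the sialophorin gene Spn (-0.72 ± 0.16), and 1 of 20 astrocyte markers fell, the glutamate transporter Slc1a3 (-0.62 ± 0.13). Over all genes tested 0.894 percent fell, and 1 call does not set apart a list of 20.

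Rises were fewer, and 10 of the 22 were in the lists of oligodendrocyte and mural cell genes. Other non-microglial lists had medians above 0 with 0 called rises: oligodendrocyte precursor (0.555), fibroblast (0.471), ependymal and choroid plexus (0.376), astrocyte (0.237) and endothelial (0.142). Medians of blood cell lists were below 0, apart from dendritic cells (0.378). Summed ependymal and choroid plexus markers had 4826 to 5356 CPM in HuMSC125 and 3452 to 4367 CPM in injured libraries. Of 20 tested oligodendrocyte genes 7 rose and 0 fell (median 0.84), where 0.159 percent of all genes tested rose and 0.894 percent fell. Mbp, myelin basic protein, had 165.6, 303.1 and 201.5 CPM in HuMSC125, 59.88, 93.05 and 98.95 CPM in injured and 221.5, 201.6 and 211.4 CPM in control libraries. The HuMSC125 libraries lay around the control values and above all injured values (log2 fold change 1.41 ± 0.26, edgeR adjusted p = 0.01749). Mobp, another structural myelin protein gene, had 16.74, 20.91 and 22.32 CPM against 7.408, 7.693 and 9.304 CPM in injured and 31.56, 25.36 and 27.98 CPM in control libraries, so that HuMSC125 lay between the other groups (1.30 ± 0.23, adjusted p = 0.01725). Cldn11, the tight junction protein of myelin, had 28.94, 29.15 and 27.04 CPM against 11.81, 14.29 and 16.47 CPM (1.00 ± 0.16, adjusted p = 0.01034). The adhesion molecule gene Mag, Bcas1, which marks newly myelinating cells, and Tspan2 rose by 1.03 ± 0.21, 1.64 ± 0.32 and 0.73 ± 0.16. Tspan2 is named outside the naming rule. Bcas1 was highest in the neuron-rich replicate 2, with 39.19 CPM there and 17.42 and 15.82 CPM in the other HuMSC125 libraries. The number of risen members was 3 without HuMSC125 replicate 2, 3 without HuMSC125 replicate 3 and 0 without injured replicate 1. The summed level of the 20 genes was 1122 to 1489 CPM in HuMSC125, 782.7 to 929.3 CPM in injured and 1359 to 1494 CPM in control libraries. Myelin transcripts reach CD11b/c-enriched preparations from other cells or as debris within phagocytes, and which of these the difference reflects was not tested.

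The smooth muscle genes Myh11, Acta2 and Tagln rose among 14 tested mural cell genes, of which 0 fell (median 0.41). Over all genes tested 0.159 percent rose. Myh11, the smooth muscle myosin heavy chain, had 56.87, 36.83 and 48.28 CPM in HuMSC125, 17.52, 14.43 and 28.67 CPM in injured and 53.9, 44.43 and 33.13 CPM in control libraries. HuMSC125 and injured did not overlap, and HuMSC125 and control did (1.22 ± 0.24, edgeR adjusted p = 0.02339). Acta2, smooth muscle actin, and the actin-binding Tagln rose by 0.91 ± 0.20 and 0.85 ± 0.15. None of the 3 mural genes passed without injured replicate 1 or without injured replicate 2 (0 in each), and 1 passed without HuMSC125 replicate 1 and 1 without HuMSC125 replicate 3. Summed mural marker levels were 842.5 to 938.3 CPM in HuMSC125, 498.4 to 749.6 CPM in injured and 822.2 to 1217 CPM in control libraries. Cabp7 had 11.19, 7.672 and 10.2 CPM in HuMSC125 against 1.698, 2.711 and 3.018 CPM in injured and 14.41, 11.99 and 11.63 CPM in control libraries. HuMSC125 lay far above injured and below control (1.95 ± 0.26, adjusted p = 0.002794). Fgf13, an intracellular modulator of sodium channels, and the tubulin gene Tubb4a rose by 1.92 ± 0.38 and 1.31 ± 0.29, and both lost their call without replicate 2 (adjusted p = 0.07483 and 0.1263). The membrane protein gene Tmem47 (0.76 ± 0.15) and Dagla, which makes the endocannabinoid 2-AG, (0.58 ± 0.12) kept theirs in that fit. Each of these genes lost it in 6 of 13 other settings, among them without HuMSC125 replicate 1 and without HuMSC125 replicate 3.

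**Figure D4:**
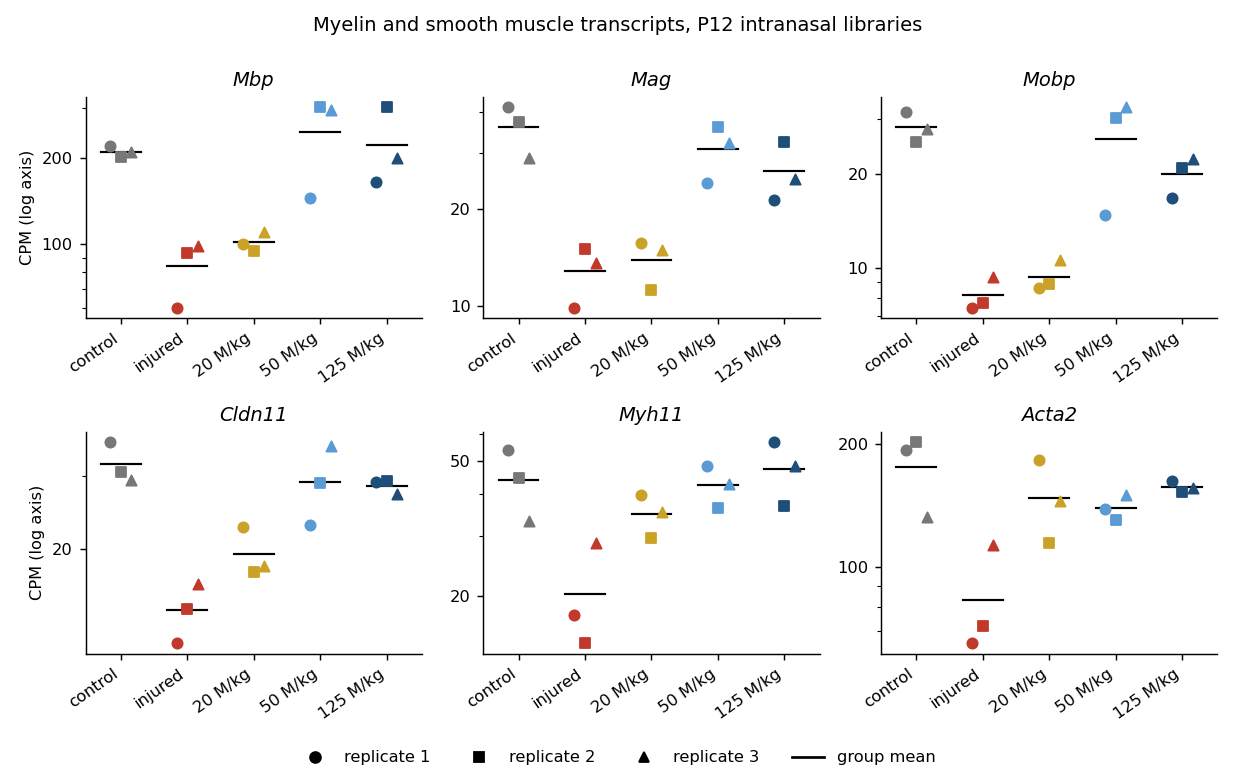
CPM (vertical log axis) of 4 myelin genes (Mbp, Mag, Mobp, Cldn11) and 2 smooth muscle genes (Myh11, Acta2) in each of the 15 libraries; colours are groups, symbols are replicates and black lines are group means. The HuMSC125 libraries lie above the injured libraries in all 6 genes and reach the range of the control libraries in Mbp, Mag, Myh11 and Acta2.

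Neuron and mitochondrial transcripts also differed between the libraries without calls. The 25 tested neuron markers had a median log2 fold change of 1.43, which was 0.41 without replicate 2, and 0 were called in either fit. The kinesin gene Kif5a had 4.543, 78.58 and 4.528 CPM in HuMSC125 and 4.09, 1.978 and 3.332 CPM in injured libraries. Mitochondrially encoded reads made up 6.456, 7.361 and 5.413 percent of counts in HuMSC125, 3.257, 3.142 and 4.525 percent in injured and 4.776, 5.185 and 5.899 percent in control libraries. HuMSC125 and injured did not overlap in this share. Of 13 tested mitochondrial transcripts 0 were called (median 0.90). The part of this share in the other differences was not tested.

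Is the treated group distinguishable from uninjured rats? Between HuMSC125 and control 0 genes passed (edgeR, 0 percent), with 1368 at an unadjusted p under 0.05, while DESeq2 called 33 (16 higher, 17 lower). Between injured and control 383 genes were called (2.76 percent), 222 higher (1.6 percent) and 161 lower (1.16 percent) in injured. The comparisons share their libraries, so their values stand side by side. For Csf1 the log2 difference was 1.22 ± 0.11 for injured minus control, -1.61 ± 0.11 for HuMSC125 minus injured and -0.39 ± 0.11 for HuMSC125 minus control (adjusted p = 0.3417 for the last). For Il1b the 3 differences were 1.18 ± 0.32, -1.57 ± 0.32 and -0.39 ± 0.32, and for Atf3 1.21 ± 0.25, -1.74 ± 0.25 and -0.53 ± 0.25. Those for Mbp were -1.33 ± 0.26, 1.41 ± 0.26 and 0.08 ± 0.25. The inflammatory list had a median of 0.36 for injured minus control (2 members called higher), -0.67 for HuMSC125 minus injured and -0.36 for HuMSC125 minus control. The oligodendrocyte list had -1.28 (11 members called lower), 0.84 and -0.48. A missing call between HuMSC125 and control does not show that the groups were alike.

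Does the highest dose differ from the lower ones? Against the mean of HuMSC20 and HuMSC50, 0 genes passed (edgeR, 0 percent), with 875 at an unadjusted p under 0.05, and DESeq2 called 13. The lower doses themselves stood apart in many of the genes above. Csf1 had 60.45, 60.59 and 62.22 CPM at 20 M per kg and 29.51, 28.11 and 26.77 CPM at 50 M per kg. The HuMSC125 libraries lay below all HuMSC20 libraries and around the HuMSC50 libraries. When each lower dose was taken alone (chosen after the data were seen), 7 genes were lower in HuMSC125 than in HuMSC20 and 0 higher, with 1151 at an unadjusted p under 0.05. None of the genes passed against HuMSC50 (0, with 716 unadjusted). The 7 were Csf1 (-1.08 ± 0.11, adjusted p = 0.001098), Fosl2 (-1.37 ± 0.19), Atf3 (-1.60 ± 0.25), Pdk4 (-1.50 ± 0.25), Crem, Arrdc3 and Adamts13. Crem, a cAMP-responsive transcription factor gene, had a log2 fold change of -0.87 ± 0.15 and Arrdc3, an arrestin-domain protein gene, of -1.45 ± 0.24. Adamts13, the von Willebrand factor protease, was called because of its HuMSC20 libraries, which had 47.08, 7.128 and 1.888 CPM against at most 0.08413 CPM in HuMSC125. These last 3 genes are named because they were among the 7.

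The differences from HuMSC50 were within their errors or short of the threshold: Csf1 differed by 0.03 ± 0.12, Fosl2 by -0.08 ± 0.20, Atf3 by -0.24 ± 0.25 and Pdk4 by 0.44 ± 0.26 on the log2 scale. Il1b had 193.1, 270.8 and 287.2 CPM in HuMSC20 and 97.64, 51.98 and 63.12 CPM in HuMSC50, so that the HuMSC125 libraries at 43.58, 111.2 and 56.96 CPM lay below the first and among the second. Its difference was -1.82 ± 0.33 from HuMSC20 (edgeR adjusted p = 0.05896) and 0.00 ± 0.32 from HuMSC50. Mbp had 100.2, 95.04 and 110.2 CPM in HuMSC20 and 145.6, 303.5 and 295.3 CPM in HuMSC50, and HuMSC125 lay above all HuMSC20 libraries. Its differences were 1.13 ± 0.26 (adjusted p = 0.1289) and -0.15 ± 0.25. Lif had 7.979, 8.74 and 8.126 CPM in HuMSC20 and 1.919, 1.463 and 3.773 CPM in HuMSC50, again with HuMSC125 below the former and close to the latter.

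Does the dose have the same effect through the nose and through a vein at this age? The 30 libraries of both routes were fitted together, and the difference between the treatment effects was tested, since each route was a sequencing run of its own and the levels of route and run cannot be told apart. Of 14362 genes 124 differed (edgeR, 0.863 percent), 52 with a higher value for the intranasal effect (0.362 percent) and 72 with a lower one (0.501 percent). There were 2252 at an unadjusted p under 0.05. Leaving out 1 library gave 15 genes (without intravenous injured replicate 3) to 289 genes (without intranasal injured replicate 3). The immediate early list had 9 members with a lower intranasal effect and 0 with a higher one (median difference -0.78), and the inflammatory list had 6 and 0 (median -0.94). In the neutrophil list 3 were lower, and in the mural cell and astrocyte lists 3 each were higher.

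The treated libraries moved in different directions for Il1rn. In CPM scaled over the 30 libraries, its intranasal values were 4.27, 6.254 and 4.367 CPM in HuMSC125 and 12.67, 9.741 and 10.22 CPM in injured libraries, and its intravenous values were 17.77, 27.18 and 23.93 CPM in HuMSC125 and 9.084, 11.42 and 9.866 CPM in injured libraries. The groups did not overlap by either route, and the treated libraries were low by the nose and high by the vein. The log2 effects were -1.12 ± 0.24 and 1.18 ± 0.22, the latter short of the threshold (edgeR adjusted p = 0.05173), and their difference was -2.30 ± 0.32 (adjusted p = 0.00175). Csf1 fell by the nose (-1.60 ± 0.15) and moved by -0.34 ± 0.15 through the vein (adjusted p = 0.5486), a difference of -1.26 ± 0.21 (adjusted p = 0.005065). Intravenous HuMSC125 libraries had 40.73, 39.64 and 34.8 CPM of Csf1 and intravenous injured libraries 45.99, 42.37 and 57.35 CPM, so that the injured level was lower in that run than the 77.57 to 95.6 CPM of the intranasal run. Atf3 had an intravenous effect of -0.02 ± 0.20 and Il1b of 0.56 ± 0.32, with differences between routes of -1.71 ± 0.29 (adjusted p = 0.00533) and -2.12 ± 0.46 (adjusted p = 0.03054). Injured libraries had 280.4 to 433.9 CPM of Atf3 in the intranasal and 164.2 to 193.1 CPM in the intravenous run, without overlap. For Il1b the injured ranges overlapped, at 143.7 to 295.3 CPM and at 151.9 to 246 CPM.

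**Figure D5:**
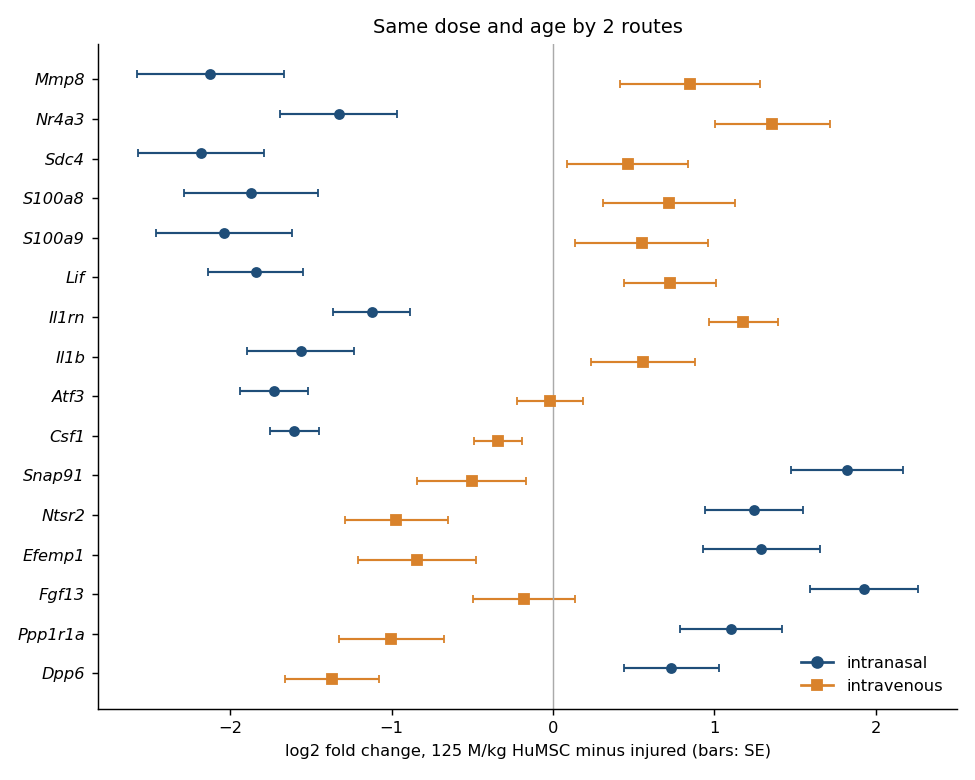
Log2 fold change of HuMSC125 minus injured (horizontal axis, bars are SE) for 16 genes (rows) by the intranasal route (circles) and the intravenous route (squares) at P12. The first 10 rows lie below 0 by the nose and the last 6 above 0, while the intravenous values lie on the other side of 0 or nearer to it. Genes other than Il1rn, Il1b, Atf3 and Csf1 were picked for a called route difference and for intranasal groups that did not overlap. That choice favours this pattern.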

How the data were processed

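RNA of CD11b/c-enriched rat brain cells was read as stranded libraries of polyadenylated RNA, 75 bases single-end from 100 ng, per the labels' protocols. The deposited values are raw read counts per gene. Tools named in the submitters' processing notes are HTSeq 0.5.3, DESeq2 1.8.1, the aligner STAR 2.7.2d and SAMtools. The build, the annotation and the handling of strand and of reads with several matches are not stated there.

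Genes passing edgeR's filterByExpr (minimum count 10, minimum total 15) were scaled by TMM and tested with edgeR 4.0.16 (quasi-likelihood F test, group means over the 15 libraries of the run, R 4.3.3), with Benjamini-Hochberg adjustment at 0.05. CPM use TMM-scaled library sizes, and SE is the log2 fold change divided by the root of F. The route difference was fitted over 30 libraries. Nothing states that replicates came from separate animals, so p-values measure the spread between these libraries, which may be technical. No pair of replicates agreed within counting noise. Alternatives used DESeq2 1.42.0 and limma 3.58.1, and the test was tried on simulated data.

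The members, gene lists and naming rule were chosen with earlier results of these data known. Lists held 882 entries, of which 836 matched by symbol, 7 by synonym and 39 not at all, and 749 were tested. Named genes are the 12 largest rises and falls, the 8 largest that also passed without HuMSC125 replicate 2, up to 4 members of each list with the smallest p, 15 fixed genes and, for the route, 6 in each direction. Genes ranked by size had to be called, and their intranasal HuMSC125 and injured libraries could not overlap, for the route too. Part of them is printed, some are not reported here, and others are marked where they appear.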

Additional observations from a re-analysis of the deposited data

Results flagged for a closer look

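The effect of the dose differed between the intranasal and the intravenous route, by a test of the difference itself, in the 6 genes with the lowest and the 6 with the highest difference among those the naming rule allows (edgeR, 30 libraries, log2 scale). That rule kept only called genes whose intranasal HuMSC125 and injured libraries did not overlap. Lower through the nose were Mmp8 (difference -2.9735), Nr4a3, an immediate early transcription factor gene (-2.6867), Sdc4 (-2.6434), the alarmin genes S100a8 (-2.5906) and S100a9 (-2.588), and Lif (-2.5695). For Lif the effects were -1.84 ± 0.30 through the nose and 0.73 ± 0.29 through the vein, and its difference kept its call under all 17 other settings. The other 11 differences lost theirs in some of the 17: Efemp1 in 9, S100a8, S100a9, Fgf13 and Ppp1r1a in 7 each, Mmp8 in 6, Snap91 in 5, Sdc4 and Ntsr2 in 3 each, and Nr4a3 and Dpp6 in 1 each. Higher through the nose were the synaptic vesicle gene Snap91 (2.3263), the neurotensin receptor gene Ntsr2 (2.2148), the matrix gene Efemp1 (2.1354), Fgf13 (2.1086), Ppp1r1a, an inhibitor of protein phosphatase (2.1072), and the potassium channel subunit gene Dpp6 (2.1039). Snap91 was at 4.106, 10.76 and 3.556 CPM in the intranasal HuMSC125 libraries, highest in the neuron-rich replicate 2. Without that library the differences of Fgf13 and Ppp1r1a lost their call, and those of Snap91, Ntsr2, Efemp1 and Dpp6 kept it. The part of neuron RNA in these differences was not tested.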

How the results depend on the processing

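For HuMSC125 against injured, DESeq2 called 436 genes (165 higher, 271 lower), no filter on low counts 260 (74 higher, 186 lower), limma-voom with quality weights 234 and the 6 libraries alone 3. Leaving out 1 library gave 28 to 175: 28 without injured replicate 1, 87 without injured replicate 2, 63 without HuMSC125 replicate 1 (26 higher, 37 lower) and 56 without HuMSC125 replicate 3. Without HuMSC125 and injured replicate 3 together, a choice made after the data were seen, 31 were called. For the route difference DESeq2 called 428, no filter 247 and limma-voom 395, and leaving out 1 library gave 15 to 289: without intranasal injured replicates 1, 2 and 3 it was 37, 49 and 289, without intranasal HuMSC125 replicate 1 it was 195, without intravenous injured replicates 2 and 3 it was 41 and 15, and without intravenous HuMSC125 replicates 1, 2 and 3 it was 73, 23 and 57. DESeq2 called 33 genes between HuMSC125 and control, 865 between injured and control, and 13 between HuMSC125 and the lower doses. HuMSC20 alone gave 7. Leaving out 1 library gave 68 to 452 genes for injured against control (68 and 96 without control replicates 2 and 1, 86 and 214 without injured replicates 1 and 2), 0 to 1 for the lower doses and 0 for HuMSC125 against control. Of 59 named called genes, 58 lost the call in at least 1 setting and 0 changed direction. Of the genes that were not called, 2 did: P2ry12 ranged from -0.3381 to 0.0066 (without injured replicate 2) and Tmem119 from -0.056 (without injured replicate 3) to 0.5725, and Tmem119 was at -0.1175 without both replicates 3. The cause was not tested.

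Replicate numbers were fitted as a replicate block, which gave 108 genes (19 higher, 89 lower), with 5 inflammatory and 5 immediate early members lower. Deviations of same-numbered HuMSC125 and injured libraries from their group means correlated at 0.016, -0.064 and 0.279 for replicates 1, 2 and 3. Those of HuMSC125 and control libraries correlated at 0.136, 0.204 and 0.013. With 3 libraries per group these values cannot tell whether the numbers pair the samples.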
